A study of Mus musculus with 11 samples.

Results

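The genes described here are 7 members of the cholesterol synthesis pathway, *Hmgcs1*, *Idi1*, *Fdft1*, *Sqle*, *Lss*, *Cyp51* and *Insig1*. They were taken by symbol from the 25311 genes of a single-cell count matrix of the mouse retina, and all 7 were present. The rule itself uses no measured value, but the genes were chosen with earlier results of these data known. On build GRCm38 (GENCODE annotation) these protein-coding genes lie at chr13:119690379-119708260 (*Hmgcs1*), chr13:8885501-8892451 (*Idi1*), chr14:63145150-63179578 (*Fdft1*, minus strand), chr15:59315077-59331192 (*Sqle*), chr10:76531588-76557138 (*Lss*), chr5:4081145-4104746 (*Cyp51*, minus strand) and chr5:28071363-28078662 (*Insig1*). The cells came from 11 C57BL/6J mice, with the retina collected at postnatal day 10, the anterior segment and retinal pigment epithelium removed, the tissue dissociated with papain and the cells barcoded by inDrop, a droplet method in which every captured RNA carries a molecular identifier, so that molecules and not reads are counted (UMIs). The control group was 3 mice given PBS vehicle. The STZ group was 3 mice given streptozotocin, a toxin of pancreatic beta cells that causes hyperglycemia, a model called Phase I ROP (retinopathy of prematurity). A further 2 STZ-treated mice were nursed by a dam on a feed enriched in ω-3 long-chain polyunsaturated fatty acids (LCPUFA), and 3 STZ-treated mice by a dam on a feed enriched in ω-6 LCPUFA. Control and STZ mice shared litters, as did both diet groups, which were divided between cages. No diet group without STZ was among the samples, and the labels name no litter that the diet groups shared with the STZ mice.

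Cells make cholesterol from acetyl-CoA through the mevalonate pathway. *Hmgcs1* encodes cytosolic HMG-CoA synthase, an early enzyme of the pathway, *Idi1* encodes the isomerase that supplies dimethylallyl diphosphate, *Fdft1* encodes squalene synthase, *Sqle* squalene epoxidase, *Lss* lanosterol synthase and *Cyp51* the lanosterol demethylase. *Insig1* encodes a membrane protein of the endoplasmic reticulum that holds back the SCAP-SREBP complex when sterols are plentiful, and when sterols fall SREBP transcription factors are released and raise the transcription of most of these genes, *Insig1* included. In the nervous system lipoproteins of the blood contribute little sterol, so neurons and glia depend on local synthesis and on lipoproteins secreted by glia. The 7 genes include no uptake receptor, so uptake and export genes were examined as a separate list.

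SREBP proteins act from promoters, usually beside NF-Y, which binds CCAAT, and Sp1, which binds GC boxes. RefSeq promoter windows (build GRCm38.p6, from 250 bases before to 50 after an annotated start, length 300) were matched for 5 of the 7 genes. Shown are *Hmgcs1*, the only one of the 5 with a match to the sterol response motif TCACNCCAC, and *Idi1* and *Cyp51*, which had the largest differences between STZ and control amacrine cells. They lie at chr13:119690101-119690400 on the plus strand, chr13:8885356-8885655 on the plus strand and chr5:4104648-4104947 on the minus strand, and capitals mark the sterol response match and CCAAT on either strand (ATTGG when it lies on the other strand).
Hmgcs1: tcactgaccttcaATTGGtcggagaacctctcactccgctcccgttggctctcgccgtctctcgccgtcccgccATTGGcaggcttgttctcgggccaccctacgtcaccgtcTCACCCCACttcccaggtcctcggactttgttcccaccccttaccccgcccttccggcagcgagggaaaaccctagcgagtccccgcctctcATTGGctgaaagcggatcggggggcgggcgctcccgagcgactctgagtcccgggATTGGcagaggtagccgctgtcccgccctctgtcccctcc
Idi1: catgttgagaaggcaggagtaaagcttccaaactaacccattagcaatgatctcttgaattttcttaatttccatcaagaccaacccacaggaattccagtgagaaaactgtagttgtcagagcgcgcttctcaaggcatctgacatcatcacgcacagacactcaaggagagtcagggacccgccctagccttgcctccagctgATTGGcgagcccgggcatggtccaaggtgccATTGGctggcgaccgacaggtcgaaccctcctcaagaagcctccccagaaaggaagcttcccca
Cyp51: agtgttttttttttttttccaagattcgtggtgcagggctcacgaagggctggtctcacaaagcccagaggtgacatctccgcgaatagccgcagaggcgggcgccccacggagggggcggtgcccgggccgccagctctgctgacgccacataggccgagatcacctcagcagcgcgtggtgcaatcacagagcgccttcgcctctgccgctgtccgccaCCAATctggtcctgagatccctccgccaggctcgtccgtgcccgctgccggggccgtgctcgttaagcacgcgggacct
The *Hmgcs1* match began 137 bases before the start, and it had 4 CCAAT matches, against 2 for *Idi1* and 1 for *Cyp51*. TCACNCCAC, searched on both strands, was found in 1.24% of all 32851 promoter windows, and in none of the 27 windows of other synthesis and control genes or the 18 windows of uptake and export genes. CCAAT and the GC box GGGCGG, searched in the same way and with no match that overlapped the sterol match of *Hmgcs1*, were each found in 5 of the 5 windows of these genes, in 37.4% and 35.7% of all windows, in 59.3% and 74.1% of the windows of other synthesis and control genes, and in 33.3% and 44.4% of those of uptake and export genes. These are matches of letters in a short window and say nothing of binding.

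After cells with 300 or fewer detected genes were left out, 20033 cells remained, and clustering gave 25 clusters. Clusters were named from marker genes, so each name below stands for cells like that class: 9967 rods, 3596 bipolar cells, 3287 amacrine cells, 1425 Müller glia and 1126 cones, besides 211 unnamed cells and smaller classes. Of the 9 rod clusters, 8 with 2983 cells in all were not led by a rod marker, and the largest rod cluster held 38.5% to 59.5% of the rods of control mice and 79.2% to 87.2% of those of STZ mice. Libraries held 2563064 to 6516478 UMIs, with a median per cell of 1550 to 2341 in control and 1003.5 to 1190 in STZ mice, and 1157 barcodes occurred in more than 1 library. The control libraries stood apart from all 8 libraries of STZ-treated mice. In amacrine cells the summed level of 10 genes that respond to tissue dissociation was 112.5 to 191.6 CPM (UMI counts scaled to a common total) in control mice against 1817 to 3118 CPM in STZ-treated mice. The level of mitochondrial ribosomal RNA was 39400 to 54130 against 4345 to 13320 CPM, and that of the nuclear RNA *Rn7sk* was 146.5 to 155.1 against 1.153 to 44.86 CPM. Preparation and treatment therefore cannot be told apart in any comparison with the control mice. All levels below are UMIs of a gene summed over the cells of a class in a mouse, given as CPM of that sum, and they were compared between samples and classes but not between genes.

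Of the 5 largest classes, amacrine cells, the inhibitory interneurons of the inner retina, held the highest level of 6 of the 7 genes in nearly every mouse. The amacrine sum was the highest of 5 classes in 11 of 11 mice for *Idi1*, *Fdft1* and *Cyp51*, and in 10 of 11 for *Hmgcs1*, *Sqle* and *Insig1*, the exception being a cone sum each time. *Lss* had no such order, with amacrine cells highest in 5 mice, Müller glia in 4, rods in 1 and bipolar cells in 1. The classes were clustered from these same cells, 1 of the 7 genes, *Hmgcs1*, was among the 2000 variable genes used for it, and so these orders are descriptions without a test.

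**Figure D1:**
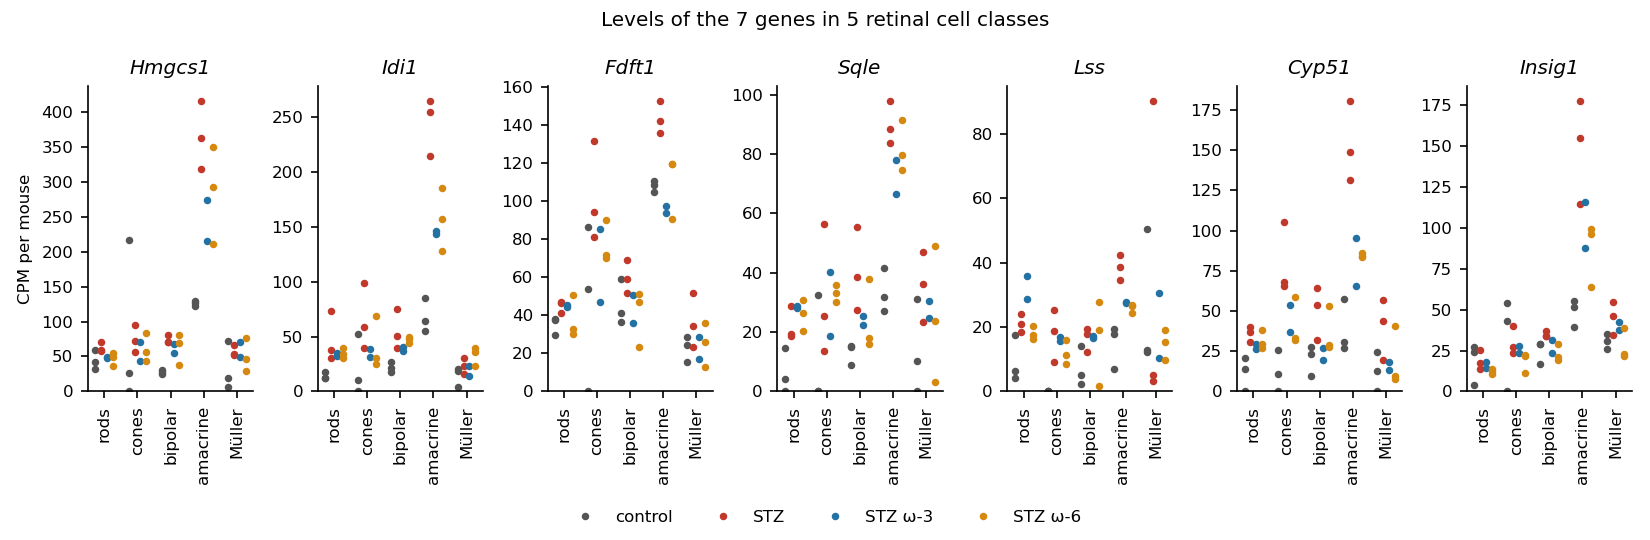
Level of each of the 7 genes (CPM per mouse, vertical axis) in 5 retinal cell classes (horizontal axis), with 1 point per mouse and colours for the 4 groups. The highest points are amacrine sums for every gene except *Lss*, where a Müller glia sum of 90.27 CPM in STZ replicate 3 is the highest point.

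For *Hmgcs1*, the level in amacrine cells was 256.2 ± 103.0 CPM (SD, n = 11 mice, range 122.2 to 416.2). The next classes were cones at 69.48 ± 55.42, bipolar cells at 56.11 ± 21.91, rods at 50.76 ± 11.36 and Müller glia at 49.33 ± 22.88 CPM. These 4 overlapped broadly, so only the gap below amacrine cells stood out of the spread. *Idi1* showed the same order, from 154.6 ± 71.09 CPM in amacrine cells to 41.31 ± 27.56 in cones, 40.98 ± 16.0 in bipolar cells, 32.33 ± 16.73 in rods and 22.65 ± 10.08 in Müller glia. *Fdft1* stood at 116.1 ± 20.36 CPM in amacrine cells and 73.84 ± 33.09 in cones, with bipolar cells at 47.82 ± 12.91, rods at 40.34 ± 7.17 and Müller glia at 27.13 ± 10.92. *Fdft1* was the gene with the smallest relative spread among amacrine samples. Its lowest amacrine level, 90.79 CPM, was above the highest levels in rods, bipolar cells and Müller glia, but not above that in cones (131.7 CPM).

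The enzymes of the later steps and the regulator followed a similar order. *Sqle* was at 69.18 ± 24.59 CPM in amacrine cells and between 20.03 and 25.94 CPM on average in the other 4 classes, which could not be ranked against their SDs. *Cyp51* was at 90.07 ± 47.62 CPM in amacrine cells, 44.54 ± 29.6 in cones, 33.3 ± 16.56 in bipolar cells, 26.6 ± 11.63 in rods and 22.47 ± 17.47 in Müller glia. *Insig1*, the regulator, differed in that Müller glia came next, at 35.53 ± 10.17 CPM after 95.98 ± 43.34 in amacrine cells, followed by bipolar cells (27.59 ± 6.505), cones (26.76 ± 14.85) and rods (16.48 ± 6.899). *Lss* was at 26.62 ± 9.943 CPM in amacrine cells and 23.59 ± 25.81 in Müller glia, and the latter mean rested on STZ replicate 3 (90.27 CPM from 23 UMIs). Its levels in rods, bipolar cells and cones were 19.09 ± 8.944, 13.88 ± 8.016 and 11.05 ± 8.487 CPM.

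Among smaller classes, pooled over all mice, the 96 retinal ganglion cells held a high *Hmgcs1* level of 422 CPM (608 UMIs, exact Poisson interval 389.1 to 456.9 at 95%). Ganglion cells also held *Fdft1* at 195.7, *Idi1* at 134.7, *Cyp51* at 109 and *Insig1* at 97.18 CPM. The amacrine means over mice were 256.2 for *Hmgcs1*, 116.1 for *Fdft1*, 90.07 for *Cyp51* and 95.98 for *Insig1*, all below the pooled ganglion levels. For *Idi1* the amacrine mean, 154.6 CPM, was above it. Amacrine cells were thus not the highest class for every gene once ganglion cells are counted. The 113 vascular cells were low in *Hmgcs1* (17.57 CPM, 9.081 to 30.7) but not in *Insig1* (95.19 CPM, 73.47 to 121.3). In 59 microglia *Cyp51* had 0 of 158785 UMIs, which allows up to 18.89 CPM. Intervals and limits cover counting error only, and cells of 1 mouse are not replicates, so these classes were not tested.

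Hyperglycemic STZ mice were compared with vehicle control mice to ask how the retina differs in the Phase I ROP model. In amacrine cells *Hmgcs1*, *Idi1*, *Sqle*, *Lss*, *Cyp51* and *Insig1*, 6 of the 7 genes, rose, by 2.03-fold for *Lss* to 3.13-fold for *Cyp51*, and *Fdft1* did not pass the test. A gene was called where the quasi-likelihood test of edgeR, adjusted by Benjamini-Hochberg over all genes tested in the class, gave a p under 0.05. In the same fit 18.3% of all amacrine genes were called higher and 20.5% lower (2066 and 2325 genes). With library totals only in place of the scaling of the test, 3825 were called higher and 1320 lower, so the balance of directions over all genes depended on the scaling. Calls were therefore frequent across the whole class, and each gene's call is given beside that share.

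*Hmgcs1* in amacrine cells measured 126.7, 122.2 and 128.9 CPM in the control mice, 318.1, 363.3 and 416.2 in the STZ mice, 214.6 and 273.8 in the ω-3 diet-fed mice and 211.6, 293.2 and 350.1 in the ω-6 diet-fed mice. The control mice were close together and below every other mouse. The log2 fold change from control to STZ was 1.19 (SE 0.14, edgeR adjusted p = 2.514e-05). *Idi1*, acting further down the mevalonate pathway, measured 55.43, 64.00 and 85.53 CPM in control, 214.2, 254.9 and 265.2 in STZ, 143.6 and 146.7 in ω-3 and 128.1, 157.5 and 185.9 in ω-6 mice. The 3 sets, control, STZ and both diets, did not overlap, with the diet-fed mice in between. Its log2 fold change from control to STZ was 1.50 (SE 0.18, edgeR adjusted p = 2.797e-05).

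*Cyp51* had the largest difference of the 7 in amacrine cells. It measured 57.41, 27.15 and 30.79 CPM in control, 131.5, 148.8 and 180.8 in STZ, 95.46 and 65.22 in ω-3 and 85.93, 83.54 and 84.12 in ω-6 mice. Again the diet-fed mice lay between the sets without overlap. The log2 fold change from control to STZ was 1.65 (SE 0.24, edgeR adjusted p = 0.0001504). *Insig1*, which responds to the same sterol sensing, measured 39.59, 55.28 and 51.32 CPM in control, 114.5, 154.6 and 177.8 in STZ, 87.82 and 115.5 in ω-3 and 64.04, 99.24 and 96.14 in ω-6 mice. Here 1 ω-3 mouse reached the lowest STZ mouse. The log2 fold change from control to STZ was 1.26 (SE 0.21, edgeR adjusted p = 0.0003343).

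*Sqle* measured 41.57, 27.15 and 31.93 CPM in control, 83.77, 98.04 and 88.40 in STZ, 66.44 and 78.13 in ω-3 and 74.58, 79.61 and 91.33 in ω-6 mice, so that the diet-fed mice reached the STZ range. Its log2 fold change from control to STZ was 1.07 (SE 0.21, edgeR adjusted p = 0.001381). *Lss*, from few UMIs, measured 17.82, 19.40 and 6.842 CPM in control, 42.42, 34.60 and 38.74 in STZ, 27.49 and 27.85 in ω-3 and 24.32, 26.91 and 26.44 in ω-6 mice. The log2 fold change for *Lss* was 1.02 (SE 0.35, edgeR adjusted p = 0.02977). This call was lost in 5 of 17 alternative analyses, with DESeq2 and without control replicate 3 or any 1 of the 3 STZ replicates, where the adjusted p of edgeR or DESeq2 was 0.05349 to 0.09427.

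*Fdft1*, the step that commits farnesyl diphosphate to sterols, did not follow the other 6. It measured 110.9, 108.6 and 104.9 CPM in control, 142.1, 136.1 and 153.0 in STZ, 97.75 and 93.75 in ω-3 and 90.79, 119.4 and 119.4 in ω-6 mice. In CPM every STZ mouse was above every control mouse, but with the scaling of the test (TMM, trimmed mean of M values) the log2 fold change was 0.06 (SE 0.15, edgeR adjusted p = 0.7672), with an interval of 2 SE from -0.24 to 0.36. CPM and the test differ in this scaling: with library totals alone, as in CPM, the median log2 fold change of all amacrine genes was 0.37, against 0.02 with TMM, and fold changes here are relative to the latter. In CPM all 7 genes had every STZ mouse above every control mouse, as 40.1% of all amacrine genes did.

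**Figure D2:**
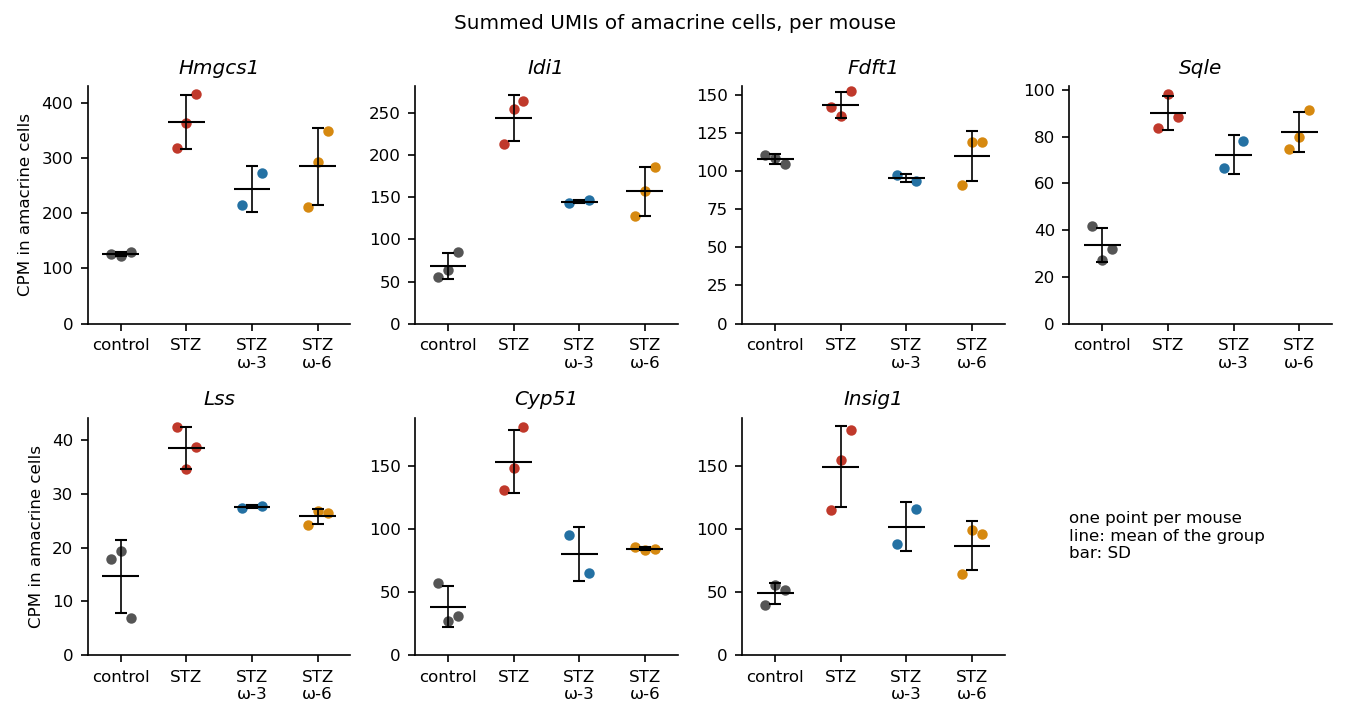
Level of each gene in amacrine cells (CPM, vertical axis) by group, with 1 point per mouse, a line at the group mean and a bar for the SD. Control mice lie lowest for every gene except *Fdft1*, and the diet-fed mice lie between control and STZ for *Idi1*, *Cyp51* and *Lss*.

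The share of amacrine cells with at least 1 UMI was taken over the pooled cells of all mice of a group. It has no spread over mice and is a description. For *Hmgcs1* it was 23.09% of 719 control and 40.58% of 961 STZ amacrine cells, at medians of 3250 and 2320 UMIs per cell. After each cell was thinned to 700 UMIs, with shallower cells left out (706 and 907 cells kept), the shares were 7.79% and 18.85%. In rods, the class with most cells and a low level, the thinned shares were 2.101% in control and 3.53% in STZ mice. Unthinned, the rod shares were 3.286% and 4.32%, at medians of 987 and 832 UMIs. How much of the share in either class was free RNA was not tested. The share in diet-fed mice after thinning was 12.19% with ω-3 and 10.19% with ω-6, both between the control and STZ shares (unthinned 42.03% and 40.06%).

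Bipolar cells, which carry signals from photoreceptors to the inner retina, had 3 of 7 genes called higher and 0 lower, with 21.3% of all bipolar genes called higher and 23.9% lower. *Hmgcs1* rose from 27.77, 24.6 and 30.68 CPM in control to 70.62, 71.31 and 80.97 CPM in STZ bipolar cells (log2 fold change 1.01, SE 0.25, edgeR adjusted p = 0.004964). This call held in all 17 alternatives. *Sqle* (1.20, SE 0.38, edgeR adjusted p = 0.01889) and *Idi1* (0.93, SE 0.33, edgeR adjusted p = 0.03469) were also called in bipolar cells but lost the call in 4 and 7 of 17 alternatives. For *Sqle* these included leaving out control replicate 3, STZ replicate 1 or STZ replicate 2 (edgeR adjusted p of 0.0682, 0.05277 and 0.09995), and for *Idi1* control replicate 1, control replicate 3, STZ replicate 1 or STZ replicate 3 (0.1083, 0.0635, 0.1962 and 0.05851). *Insig1* in bipolar cells had a log2 fold change of 0.07 (SE 0.33, edgeR adjusted p = 0.8724), against 1.26 in amacrine cells.

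In rods 1 of 7 genes was called higher, where 18.4% of all rod genes were called higher and 19.7% lower. *Idi1* in rods measured 17.36, 12.69 and 12.58 CPM in control and 30.28, 73.52 and 38.0 CPM in STZ mice, without overlap. The control sums rested on 3 to 6 UMIs each, so that *Idi1* in rods passed the filter on low counts only through the STZ sums and its call is given as a description. The log2 fold change was 1.35 (SE 0.49, edgeR adjusted p = 0.04068), and the call was lost in 7 of 16 alternatives. Leaving out control replicate 2 or 3 or STZ replicate 2 or 3 gave *Idi1* in rods an edgeR adjusted p of 0.06412, 0.1244, 0.165 and 0.05159. In cones, of which control mice had only 13 to 46 cells each, 3 of 7 genes could be tested and *Cyp51* had an adjusted p under the threshold (log2 fold change 2.50, SE 0.86, edgeR adjusted p = 0.04516), beside 10.9% of all cone genes called higher and 7.9% lower. This too is a description, since *Cyp51* passed the filter in cones only through the STZ sums. It rested on 2 UMIs in control and 58 in STZ cones, a CPM ratio of 6.87 with a 95% counting interval of 1.82 to 58.1, and it was lost in 6 of 10 alternatives, among them leaving out control replicate 1, 2 or 3 (*Cyp51* in cones, edgeR adjusted p of 0.1327, 0.05396 and 0.1747). In Müller glia, the principal glia of the retina, only *Hmgcs1* passed the filter on low counts, with a log2 fold change of 0.46 (SE 0.55, edgeR adjusted p = 0.6224), beside 5.81% of all tested glial genes called higher and 5.03% lower.

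Over the 5 classes, 25 of 35 pairs of gene and class could be tested, of which 11 were called higher and 0 lower, and 22 had a positive log2 fold change. Of the 25, 4 passed the filter only through the STZ sums, and 2 of these were among the calls, *Idi1* in rods and *Cyp51* in cones. The other 9 calls were those in amacrine and bipolar cells. The pairs that failed the filter on low counts were in cones and Müller glia. Calls in amacrine cells and not in rods do not show that the classes differed. The difference in log2 fold change between amacrine cells and rods, tested with limma on within-mouse differences in a comparison added after the values were seen, was called for 0 of 7 genes (570 of 7491 genes called). The nearest was *Hmgcs1*, with 1.09 (SE 0.32, limma adjusted p = 0.05453). Against bipolar cells it was again 0 of 7 (190 of 9481 genes called), the nearest being *Insig1* with 1.17 (SE 0.33, limma adjusted p = 0.0908). Leaving out control replicate 2 gave 1 called gene against rods, and leaving out control replicate 3 gave 1 against bipolar cells. For Müller glia against the mean of rods, bipolar and amacrine cells only *Hmgcs1* could be tested, with 0.04 (SE 0.56, limma adjusted p = 0.9825, 78 of 4034 genes called).

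**Figure D3:**
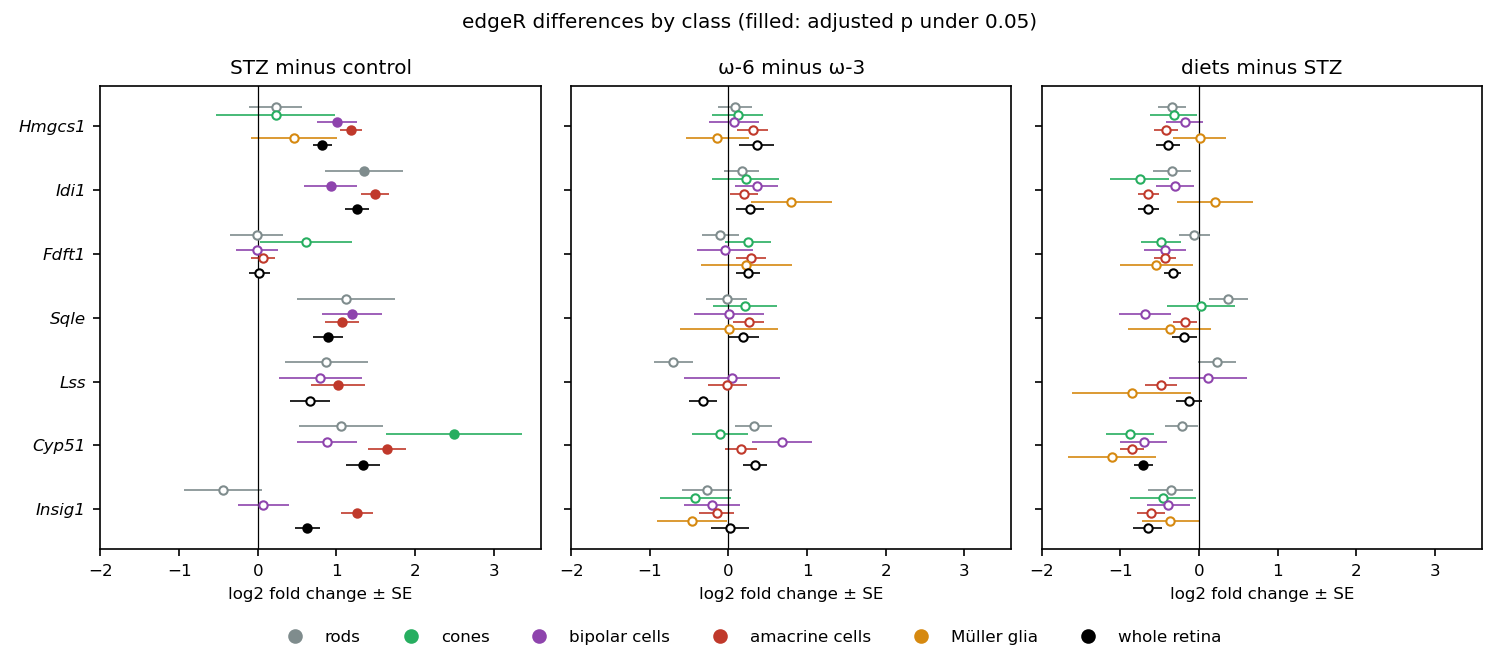
Log2 fold change with its SE (horizontal axis) of each gene (vertical axis) in 5 classes and the whole retina, for STZ against control, ω-6 against ω-3 and diets against STZ, filled where the edgeR adjusted p was under 0.05. The filled points are 11 class points and 5 whole-retina points for STZ against control, none for ω-6 against ω-3 and 1 whole-retina point, *Cyp51*, for diets against STZ.

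Summed over all cells of a retina, where fewer cells of a type and less RNA per cell cannot be told apart, 5 of 7 genes rose in STZ mice, with 24.7% of all genes called higher and 23.4% lower. The log2 fold changes were 1.34 for *Cyp51* (SE 0.21, edgeR adjusted p = 0.0004202), 1.27 for *Idi1* (SE 0.15, edgeR adjusted p = 5.623e-05) and 0.89 for *Sqle* (SE 0.19, edgeR adjusted p = 0.002889). *Hmgcs1* followed with 0.82 (SE 0.12, edgeR adjusted p = 0.000256) and *Insig1* with 0.63 (SE 0.16, edgeR adjusted p = 0.006735). *Lss* just missed the threshold (0.67, SE 0.26, edgeR adjusted p = 0.05001) and *Fdft1* had 0.02 (SE 0.13, edgeR adjusted p = 0.9157). In CPM every STZ mouse was above every control mouse for 7 of 7 genes, as for 40.2% of all genes.

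Beside these differences, the summed level of the 7 genes in amacrine cells was 423.8 to 449.4 CPM in control mice and 679.3 to 1320 CPM in the 8 STZ-treated mice, the same split as the dissociation response genes, mitochondrial ribosomal RNA and *Rn7sk*. Of the rod markers, a sign of rod RNA or rod cells among these sums, 7 (*Nrl*, *Gnat1*, *Pde6b*, *Sag*, *Nr2e3*, *Cnga1* and *Pdc*) came to a summed level of 167.8 to 206.4 CPM in control and 369.0 to 1126 CPM in STZ-treated amacrine cells, with 0 of them absent from any mouse. *Gnat1* alone was higher in control mice, at 92.05 to 99.89 against 30.44 to 88.32 CPM. With ribosomal RNA, *Rn7sk* and the dissociation response genes left out of the sums before scaling, an analysis added after the data were seen, 10 pairs of gene and class were called higher and 0 lower. Leaving these genes out changes the scaling but not the counts of the 7 genes, so it is no test of preparation. The part of these technical values in the result was not tested.

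**Figure D4:**
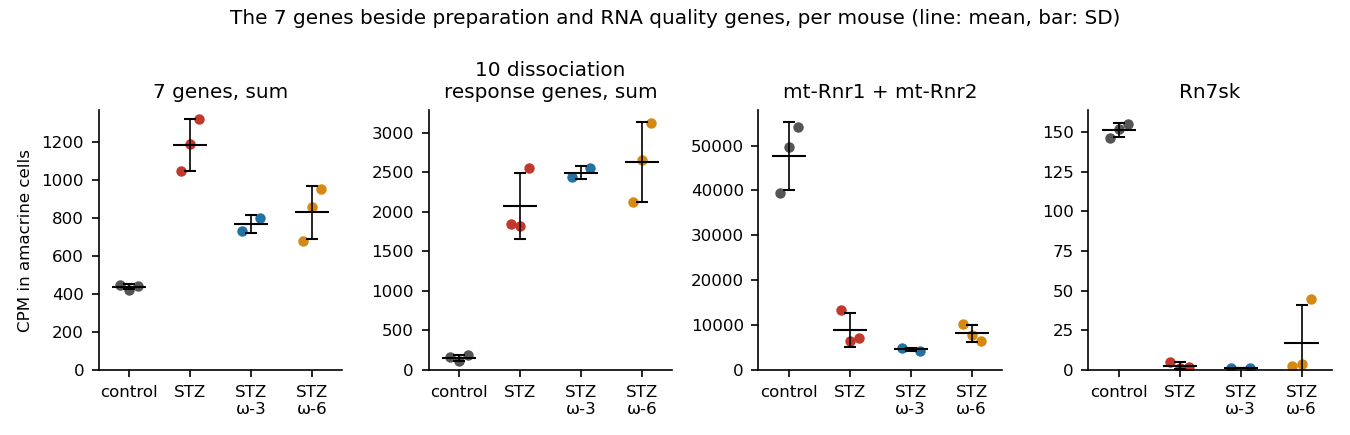
Summed level in amacrine cells (CPM, vertical axis) of the 7 genes, 10 dissociation response genes, mitochondrial ribosomal RNA and *Rn7sk*, by group, with 1 point per mouse, a line at the mean and a bar for the SD. The 3 control mice are apart from all 8 STZ-treated mice in each panel, and STZ and diet-fed mice are apart only in the sum of the 7 genes.

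Other genes of the pathway were called in both directions in STZ mice, as were genes as a whole. The list of 23 other synthesis and control genes had 7 of 22 tested genes called higher and 2 lower in amacrine cells (median log2 fold change 0.47, against 0.02 over all genes), beside 18.3% and 20.5% of all amacrine genes. *Sc5d*, a late sterol desaturase, rose by 1.53 (SE 0.25, edgeR adjusted p = 0.0003045). *Fdps*, farnesyl diphosphate synthase, which lies between *Idi1* and *Fdft1*, fell by 1.28 on the log2 scale (SE 0.19, edgeR adjusted p = 0.0001675). *Fdps* also fell by 1.73 in bipolar cells and by 1.37 in rods. Of this list, rods had 5 of 15 tested genes called higher and 2 lower, beside 18.4% and 19.7% of all rod genes. Bipolar cells had 4 of 19 higher and 3 lower, beside 21.3% and 23.9% of all bipolar genes, so the share called higher was near that of all genes. Cones had 1 of 5 higher, beside 10.9%, and Müller glia 0 of 9 in either direction, beside 5.81% higher and 5.03% lower. In bipolar cells *Msmo1*, a methyl sterol oxidase, fell by 2.06 on the log2 scale (SE 0.22, edgeR adjusted p = 7.019e-06).

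Of 17 uptake and export genes, 3 of 15 tested were called higher and 0 lower in amacrine cells (median 0.46). The share called higher was near the 18.3% of all amacrine genes and is no result about the list. The 3 genes were *Lrp8*, the apolipoprotein E receptor 2 (1.56, SE 0.16, edgeR adjusted p = 9.269e-06), *Mylip*, a ubiquitin ligase that degrades lipoprotein receptors (2.49, SE 0.50, edgeR adjusted p = 0.001544), and *Npc1*, which exports cholesterol from lysosomes (0.70, SE 0.26, edgeR adjusted p = 0.0452). In bipolar cells 7 of 14 were called higher and 3 lower, beside 21.3% and 23.9% of all genes, and in rods 3 of 11 and 2, beside 18.4% and 19.7%. *Apoe*, the lipoprotein component made mainly by glia, fell by 2.25 in the rod sums (SE 0.48, edgeR adjusted p = 0.001859) and by 1.06 in Müller glia (SE 0.20, edgeR adjusted p = 0.004329). In Müller glia it was the only 1 of 8 tested uptake and export genes called, beside 5.81% of all genes called higher and 5.03% lower. Whether *Apoe* in the rod sums was RNA of rods or of glia was not tested.

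The mean of the 2 diet groups was compared with the STZ mice on neither diet. These are the STZ mice of the comparison above, so both results share them and are not independent. Diet, litter and preparation cannot be told apart here. Depth moved with the comparison too: the STZ libraries held 2563064 to 3486742 UMIs with medians of 1003.5 to 1190 per cell, and the diet libraries 4356305 to 6516478 UMIs with medians of 1386.5 to 2215, without overlap. With all sums thinned to the smallest total, 0 of the pairs of gene and class were called, as without thinning. In amacrine cells all 7 genes had a negative log2 fold change and 0 were called, as were 0% of all amacrine genes called lower. The values were -0.85 for *Cyp51* (SE 0.15, edgeR adjusted p = 0.0517), -0.64 for *Idi1* (SE 0.14, edgeR adjusted p = 0.1087) and -0.61 for *Insig1* (SE 0.18, edgeR adjusted p = 0.2914). *Lss* had -0.48, *Fdft1* -0.44, *Hmgcs1* -0.42 and *Sqle* -0.17, with edgeR adjusted p-values of 0.3234 or more. For *Idi1*, *Fdft1*, *Cyp51* and *Lss* every diet-fed mouse was below every STZ mouse in CPM, 4 of 7 genes, as for 5.05% of all amacrine genes.

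Over the 5 classes 34 pairs of gene and class were tested. Of these, edgeR called 0 in either direction and DESeq2 called 2 lower, 28 were negative, and 8 had an unadjusted edgeR p under 0.05. Of all genes, edgeR called 0.174% lower in rods and 1.82% in cones, against 0% in bipolar cells and 0.0378% in Müller glia. DESeq2 called 12 amacrine, 68 rod, 158 cone, 8 bipolar and 4 glial genes lower. The share of all genes with a negative value ran from 48.3% in rods to 50.4% in amacrine cells. An unadjusted edgeR p under 0.05 was held by 1269 of 13553 amacrine, 1620 of 9323 cone and 1525 of 12664 rod genes. The counts for bipolar cells and glia were 1094 of 11071 and 656 of 7941. In sums over all cells of the retina, the share of a cell type and its level per cell cannot be told apart. There 1 of 7 genes, *Cyp51*, was lower in diet-fed mice, where 0.145% of all genes were called lower. It measured 69.25, 83.88 and 86.04 CPM in STZ, 46.72 and 37.75 in ω-3 and 53.87, 48.96 and 48.89 in ω-6 mice (log2 fold change -0.71, SE 0.12, edgeR adjusted p = 0.03651). The call was lost in 8 of 17 alternatives, among them leaving out any 1 mouse other than ω-6 replicate 2, with edgeR adjusted p-values of *Cyp51* from 0.05377 to 0.1768. Without overlap in CPM were *Insig1*, *Idi1*, *Fdft1* and *Cyp51*, 4 of 7 genes, as for 7.42% of all genes in the whole retina. Amacrine sums held 866972 to 1006760 UMIs in STZ, 1309487 to 1471922 in ω-3 and 1233595 to 1783621 in ω-6 mice. Whole-retina totals were, in the same order, 2563064 to 3486742, 5672451 to 6516478 and 4356305 to 6229195 UMIs. The part of class shares in these whole-retina differences was not tested.

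The amacrine class held 5 clusters. The largest, with 1356 cells led by *Ebf3*, *Prdm13*, *Crabp1* and *Nhlh2*, had no amacrine marker of the fixed list among its 10 leading genes, and the second, with 1337 cells, was led by *Cartpt*, *C1ql1*, *Gad1* and *C1ql2*. Each was tested alone after the data had been seen. In the largest cluster 4 of 7 genes were lower in diet-fed mice than in STZ mice, where 0.108% of the 8318 genes tested in it, 9 in all, were called lower. These 4 were *Idi1*, *Cyp51*, *Hmgcs1* and *Fdft1*.

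*Idi1* in this cluster measured 253.3, 296.7 and 263.6 CPM in STZ mice against 89.11 and 127.2 in ω-3 and 121.5, 144.7 and 82.63 in ω-6 mice, and 36.55, 49.53 and 73.30 in control mice. Diet-fed mice were between the STZ and control mice without overlap. The log2 fold change from STZ to the diets was -1.17 (SE 0.21, edgeR adjusted p = 0.005591). *Fdft1* measured 159.1, 173.1 and 135.2 CPM in STZ, 67.43 and 59.38 in ω-3, 72.90, 73.48 and 61.97 in ω-6 and 86.39, 87.64 and 98.96 in control mice. For *Fdft1*, unlike *Idi1*, the diet-fed mice were below the control mice as well. Its log2 fold change from STZ to the diets was -1.14 (SE 0.24, edgeR adjusted p = 0.0231).

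*Cyp51* in the largest amacrine cluster measured 220.8, 178.0 and 169.0 CPM in STZ, 120.4 and 65.03 in ω-3, 51.30, 66.80 and 82.63 in ω-6 and 63.13, 34.29 and 21.99 in control mice (STZ to diets -1.21, SE 0.25, edgeR adjusted p = 0.01692). *Hmgcs1* measured 363.7, 365.9 and 496.7 in STZ, 171.0 and 212.1 in ω-3, 156.6, 204.8 and 299.5 in ω-6 and 116.3, 91.45 and 91.63 CPM in control mice (STZ to diets -0.95, SE 0.20, edgeR adjusted p = 0.01798). For both, no diet-fed mouse reached an STZ mouse. The count of 4 genes was kept with DESeq2 and other scalings, and was 3 with sums thinned to the smallest total. It depended on single mice: 0 genes were called without STZ replicate 2, 1 without STZ replicate 3, and 2 without STZ replicate 1, without ω-3 replicate 1 or without ω-3 replicate 2.

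In the second cluster 0 of 7 genes were called lower in diet-fed mice, with 0% of all its genes. The difference between both clusters was itself tested with limma, and 0 of 7 genes were called. The smallest p was that of *Hmgcs1*, with a difference of -0.64 (SE 0.17, limma adjusted p = 0.5283). Against control, STZ mice had 4 of 6 tested genes higher in the largest cluster (17.3% of all its genes), *Hmgcs1*, *Idi1*, *Cyp51* and *Insig1*, and 6 of 7 in the second (12.6%), all but *Fdft1*. The 2 clusters held 28.1% to 45.2% and 36.01% to 44.06% of the amacrine cells of a mouse.

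**Figure D5:**
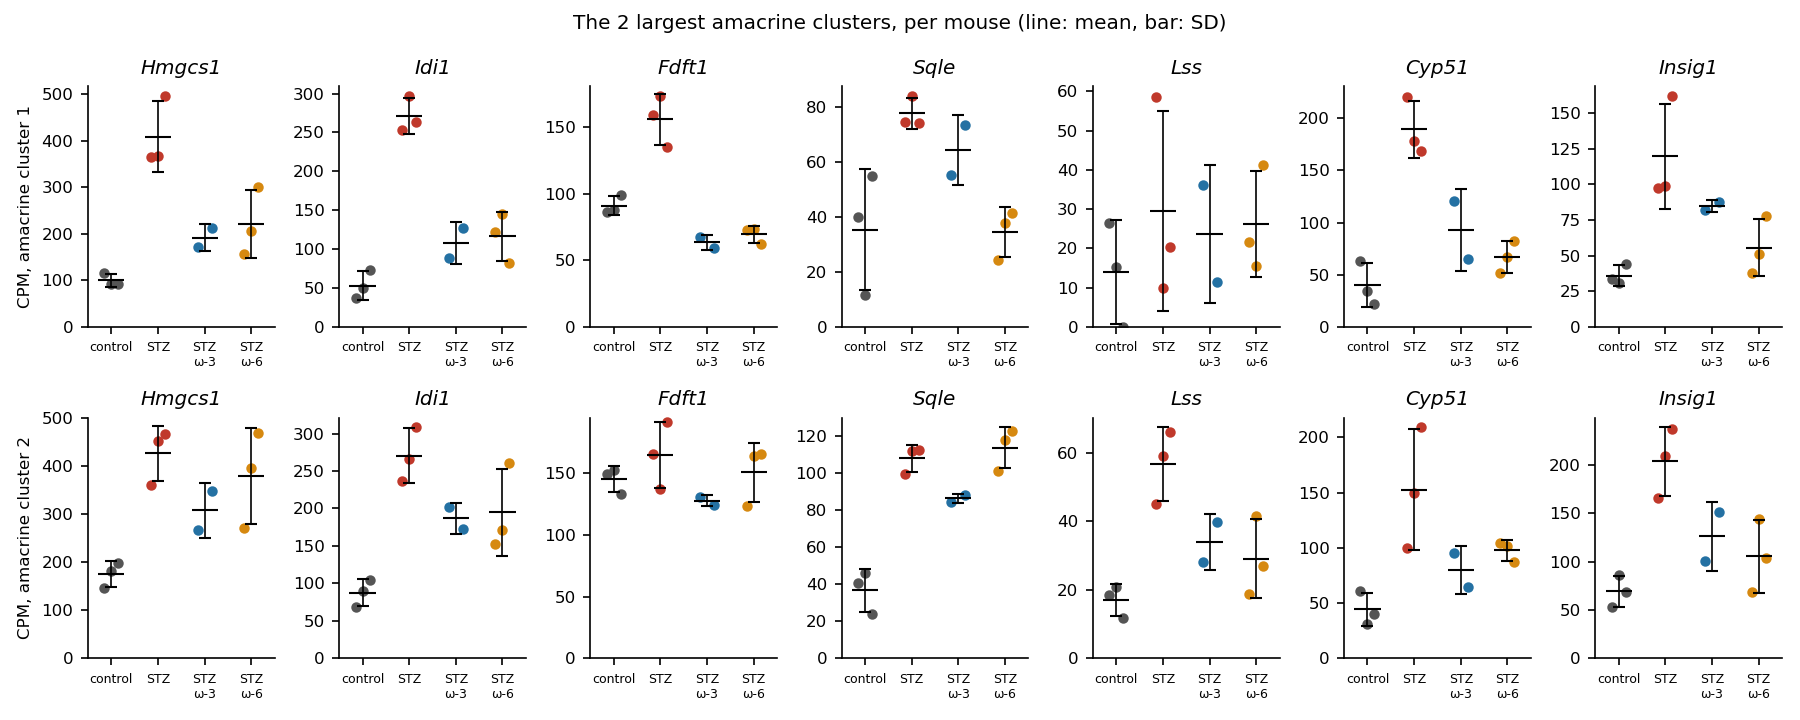
Level of each gene (CPM, vertical axis) by group in the largest (top) and second largest (bottom) amacrine cluster, with 1 point per mouse, a line at the mean and a bar for the SD. In the top row STZ mice lie above all diet-fed mice for every gene except *Lss*, and in the bottom row for 2 of 7 genes. How many of all genes in each cluster separate in this way was not counted, so both rows are descriptions only.

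The ω-6 and ω-3 diets were compared in littermates to ask what the balance of both fatty acids changes in Phase I ROP. None of the 7 genes differed between the diets by the test in any class. Of 32 pairs of gene and class tested, 0 were called by edgeR or by DESeq2, and 1 had an unadjusted p under 0.05, *Lss* in rods (-0.70, SE 0.25, edgeR adjusted p = 0.3799), lower with ω-6. Of all rod genes 2 of 12602 (0.0159%) were called, and in cones, bipolar cells, amacrine cells, Müller glia and the whole retina 0% were. Log2 fold changes ran from -0.70 to 0.80, with 20 positive and 12 negative. In amacrine cells, the class measured most precisely, the intervals of 2 SE ran from -0.10 to 0.71 for *Hmgcs1*, -0.16 to 0.56 for *Idi1* and -0.25 to 0.57 for *Cyp51*. Each of these intervals includes 0, and with 3 and 2 mice differences of any size within them remain possible. Across the whole retina *Cyp51* had 0.34 (SE 0.15, edgeR adjusted p = 0.6819), higher with ω-6, and *Lss* -0.32 (SE 0.18, edgeR adjusted p = 0.6884).

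Of the other pathway genes, 0 were called between both diets in any class. Against STZ mice, 1 was called in diet-fed mice, *Srebf1*, which encodes the SREBP that acts mainly on fatty acid synthesis. It was higher in cones (1.38, SE 0.30, edgeR adjusted p = 0.01121). In cones 18 of the 23 other synthesis and control genes were tested, and 1.44% of all genes (134 of 9323) were called higher. In amacrine cells 20 of 23 other synthesis and control genes had a negative log2 fold change in diet-fed mice, with a median of -0.12, and 10 of 16 uptake and export genes with a median of -0.03, beside a median of -0.0029 and 50.4% negative over all genes.

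Likeness was the correlation of a gene with the mean of the 7 genes across sums of mouse and class. It used log2 CPM by library totals, without TMM, after the mean of each class was taken off. Among the 10 genes most alike were *Hexim1* (Pearson r = 0.89), *Nfe2l1*, *Ncam1*, *Klf9*, *Cnot6*, *Atf4*, *Dnajb9*, *Rmnd5a* and *Daxx* (r = 0.86), over 55 points and 5504 genes. The points share 11 libraries, and the correlation is across samples that include the control libraries. With the mean of each group also taken off, the r of these 10 genes was 0.35 to 0.64. None of the 10 is on the lists of pathway genes, and the first that is, *Dhcr7*, the last enzyme of one branch of cholesterol synthesis, stood at rank 98. Between single genes of the 7 the r ran from -0.07 (*Insig1* and *Idi1*) to 0.74 (*Idi1* and *Cyp51*). With group means also taken off, it ran from -0.57 (*Insig1* and *Idi1*) to 0.74 (*Insig1* and *Fdft1*). A high r with their mean therefore does not show that the 7 genes varied together.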

How the data were processed

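The deposited matrix holds UMI counts per gene and cell, not normalized, which the authors made from inDrop reads with bcbio-nextgen and umis, assigning reads to GRCm38 transcripts with Rapmap and leaving out barcodes with few reads. The 7 genes and the lists of other pathway genes, dissociation genes and cell markers were chosen with earlier results of these data known, as were the tests, and all 7 genes are named in every class. Of the other lists at most the 3 genes with the smallest p in a comparison and class are named, apart from *Dhcr7*, named by its likeness after its values were seen. Results for some genes are not reported here.

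Cells with more than 300 genes and genes in more than 10 cells were kept, and cells were clustered with Seurat 5.3.0 (log normalization to 10000, 2000 variable genes, 75 principal components, resolution 0.2), as the study did with an earlier version. Clusters were named from marker lists by their mean standardized score. Scrublet marked under 0.5% of cells as doublets, too few for a working call, so doublets were not removed, and an alternative left out the top 5% of scores. Naming each cell by its own score gave the same class for 75.5% of cells. UMIs were summed per mouse and class and tested with edgeR 4.0.16 (quasi-likelihood test, TMM scaling, filterByExpr, Benjamini-Hochberg over all genes tested, threshold 0.05), each comparison on its own groups. Differences between classes were tested with limma 3.58.1 on within-mouse differences of log2 CPM (prior count 2). Alternatives used DESeq2 1.42.0, other scalings, filters and cell sets, thinned sums and each mouse left out. The procedure was tested on simulated data. Mice are the replicates, and nothing states how many retinas of a mouse were pooled. Totals of 2563064 to 6516478 UMIs per library limit rare classes most. The Poisson intervals and the interval of the *Cyp51* ratio in cones cover counting error only, whereas intervals of 2 SE come from the edgeR fit over mice. Promoter windows came from RefSeq. Scripts ran under R 4.3.3 and Python 3.11.15.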

Additional observations from a re-analysis of the deposited data

How the results depend on the processing

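Calls of *Hmgcs1*, *Idi1*, *Sqle*, *Cyp51* and *Insig1* in amacrine cells, and of the same 5 in the whole retina, for STZ against control held in all 17 and 16 alternatives, and no called value reversed in direction under any alternative. The 11 pairs of gene and class called higher in STZ mice became 7 with DESeq2, 12 with no filter on low counts, 12 with all 4 groups in 1 fit, 14 with library totals only, 8 to 11 under the other planned settings and 7 to 10 when 1 mouse was left out (7 without each of the STZ mice), and the 5 whole-retina calls were 5 to 6. Pairs called lower in diet-fed mice, 0 in the main test, were 2 with DESeq2, 3 with no filter on low counts, 1 with library totals only, and 0 to 1 when 1 mouse was left out (1 without STZ replicate 1 or without ω-3 replicate 1). Whole-retina calls for diets against STZ, 1 in the main test, were 3 with DESeq2, 0 with all 4 groups in 1 fit, 2 with only cells of more than 500 genes, 2 with thinned sums, 2 with library totals only, and 0 to 1 when 1 mouse was left out. Calls lower in the amacrine class with the diets, 0, were 4 in its largest cluster alone. The differences between amacrine cells and rods or bipolar cells gave 0 to 1 calls when 1 mouse was left out, and those between Müller glia and neurons 0 throughout. Library totals only, leaving out ribosomal and dissociation genes, single clusters and class differences for amacrine cells were alternatives chosen after seeing the data. The cause of these changes was not tested.

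Same-numbered control and STZ libraries correlated in their deviations from the group mean at -0.06, 0.18 and 0.20, and other-numbered ones at -0.30 to 0.14. For ω-3 and ω-6 libraries the same numbers gave 0.07 and 0.32, and other numbers -0.32 to 0.29. Whether replicate numbers pair the mice was not tested, and the main fits treated the mice as unpaired. With the number as a replicate block, 9 pairs in place of 11 were called higher in STZ mice, 5 whole-retina genes were called, diets against STZ gave 0 pairs and 1 whole-retina gene, and 1 gene was called for amacrine cells against rods, where the unblocked fit called 0. Depth limited cones and Müller glia, where 10 of 35 pairs failed the filter on low counts.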
